A study of Mus musculus with 12 samples.

Results

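The genes described here are 10 transcription factors of fat cell formation, Pparg, Cebpa, Cebpb, Cebpd, Klf15, Klf4, Ebf1, Ebf2, Rxra and Stat5a. They were chosen by gene symbol. Each was matched by a single probe set, which makes 10 of the 22206 probe sets measured on each of 12 arrays. RNA of 3T3-L1 cells, a line of mouse fibroblast-like preadipocytes that can be driven to become fat cells in culture, was hybridised to Clariom S arrays. Each of 6 groups had 2 arrays, numbered 1 and 2 in the labels. The groups were a control without compound, squalene (SQ, a hydrocarbon precursor of sterols) and 4 ethylene glycol derivatives of it, whose labels put the prefix mono-, di-, tri- or tetra- before SQ. The dose of each of the 5 compounds was 5 µM, and every group is labelled with 14 days. The labels name no genotype or transgene. The controls are labelled as untreated and not induced, whereas the shared protocol describes a mix of IBMX, dexamethasone and insulin, followed by insulin, with or without compound. Whether the control cells received the hormone mix cannot be told from these labels. Nothing in the labels states that both arrays of a group are from separate cultures, so the p-values measure the spread between arrays, which may be technical.

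Fat cell formation runs through a cascade of transcription factors. C/EBPβ and C/EBPδ, the products of Cebpb and Cebpd, are switched on within hours of hormonal induction, helped by factors such as KLF4. They then act on Pparg and Cebpa, whose products PPARγ and C/EBPα activate each other's genes and most genes of the mature fat cell. PPARγ binds DNA together with RXRα, the product of Rxra, and several other factors, among them KLF15, EBF1, EBF2 and STAT5A, add to the activity of Pparg or of its targets.

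Promoter sequence is shown for the 3 genes whose levels differed most between arrays, Pparg, Cebpa and Klf15, and for Klf4, whose level lay on the other side. The letters are from RefSeq, build GRCm38.p6 (mm10, the build of the array annotation), and cover the 250 bases before an annotated start. The table held such windows for 8 of the 10 genes, 13 windows in all, and none for Cebpd and Ebf2. Capitals mark matches, on either strand, to the letters searched, where N is any base. These were TTGCNNAA for C/EBP factors, GCGNGGGCG for EGR factors, CCCCACCC for KLF factors, AGGTCA for a nuclear receptor half-site, CCCNNGGG for EBF factors, TTCNNNGAA for STAT factors and TGACGTCA for the cyclic AMP response element. The Pparg window is that of the most downstream of the 3 Pparg starts in the table, at chr6:115421816-115422065 on the plus strand. The others are chr7:35119043-35119292 (plus strand) for Cebpa, chr6:90462326-90462575 (plus strand) for Klf15 and chr4:55532476-55532725 (minus strand) for Klf4.
Pparg: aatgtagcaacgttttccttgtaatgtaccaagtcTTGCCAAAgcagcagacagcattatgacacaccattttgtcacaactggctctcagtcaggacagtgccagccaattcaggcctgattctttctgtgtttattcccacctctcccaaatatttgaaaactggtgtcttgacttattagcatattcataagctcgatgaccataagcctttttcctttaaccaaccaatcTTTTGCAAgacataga
Cebpa: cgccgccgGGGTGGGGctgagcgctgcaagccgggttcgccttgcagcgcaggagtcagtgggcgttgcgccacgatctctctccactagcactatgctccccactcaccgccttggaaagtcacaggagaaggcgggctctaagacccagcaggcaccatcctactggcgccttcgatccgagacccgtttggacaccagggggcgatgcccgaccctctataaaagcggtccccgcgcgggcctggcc
Klf15: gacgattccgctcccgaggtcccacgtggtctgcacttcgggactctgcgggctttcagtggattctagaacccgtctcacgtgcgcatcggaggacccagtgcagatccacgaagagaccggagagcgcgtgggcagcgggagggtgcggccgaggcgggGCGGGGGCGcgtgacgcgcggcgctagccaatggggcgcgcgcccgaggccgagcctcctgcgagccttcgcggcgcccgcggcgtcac
Klf4: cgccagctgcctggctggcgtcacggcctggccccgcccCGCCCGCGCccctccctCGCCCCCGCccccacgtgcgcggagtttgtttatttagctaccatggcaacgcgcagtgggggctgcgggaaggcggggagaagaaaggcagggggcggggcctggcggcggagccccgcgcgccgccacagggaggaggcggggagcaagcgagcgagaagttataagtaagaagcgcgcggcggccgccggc
The Pparg window held the C/EBP letters at 215 and at 16 bases before the start. It was the 1 window of the 13 that held them, against 9.56% of 32851 windows of the same length over all genes. The Cebpa window held the KLF letters 242 bases before its start, and KLF letters were found in 2 of the 13 windows and in 9.05% of all windows. EGR letters stood 89 bases before the start of Klf15 and 211 and 194 bases before that of Klf4. They were found in 2 of the 13 windows and in 4.70% of all. The half-site AGGTCA was found in 5 of the 13 windows (Pparg starts 1 and 2, Rxra start 2 and both Stat5a starts) and in 14.0% of all. EBF letters were in 2 windows, of Cebpb and Stat5a, against 11.8% of all. STAT letters and the cyclic AMP response element were in 0 of the 13 windows, against 7.02% and 1.55% of all. A match describes the letters only.

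The upper quartile of the log2 signals lay between 8.95 and 9.16 in the 12 arrays. The second array of every compound stood apart from the first. Between these classes 5391 probe sets differed at an adjusted p under 0.05. For the 10 factors alone, the 2 controls differed by at most 0.45 (log2), a gap between single arrays that has no test and does not cover the other probe sets. Mature fat cell markers (12 genes such as Adipoq and Plin1) had a mean log2 level of 14.23 to 14.28 in the controls, 14.23 to 14.61 in the first compound arrays and 11.02 to 11.46 in the second, and 11 of the 12 lay above the median of negative probe sets in all arrays. The control arrays thus carried fat cell transcripts although they are labelled as not induced. Preadipocyte markers (11 genes such as Dlk1 and Col1a1) averaged 13.88 in both controls, 13.45 to 13.96 in the first arrays and 14.44 to 14.67 in the second. Below, first and second arrays are the 5 compound arrays numbered 1 and the 5 numbered 2. Levels are log2 signals as the authors normalized them, with mean ± SD over arrays. Differences are log2 ± SE from limma, and adjusted p is the Benjamini-Hochberg value over all 22206 probe sets with a threshold of 0.05. Levels of different genes are not set against each other, because probe sets differ in brightness. In these bulk samples, fewer fat cells and less RNA per fat cell cannot be told apart.

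**Figure D1:**
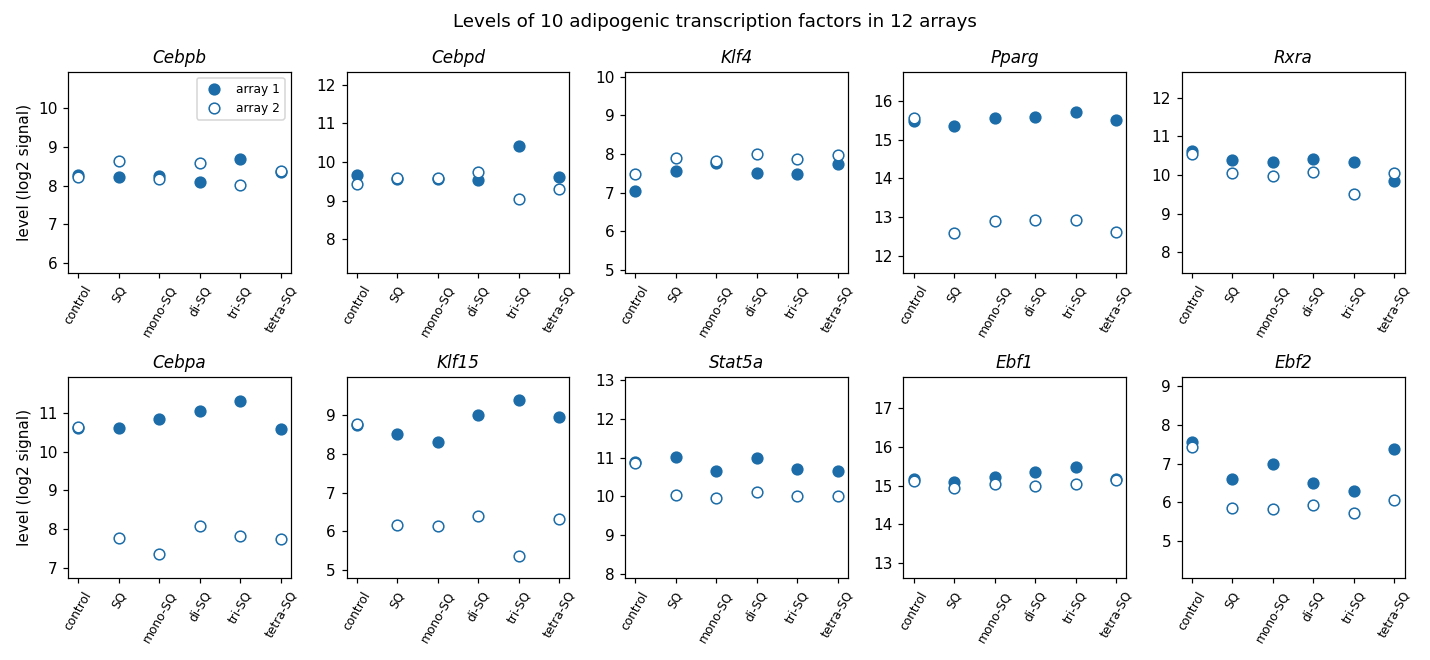
Log2 signal (y axis) of each of the 10 transcription factors in the 6 groups (x axis). Filled points are array 1 and open points array 2 of a group. Pparg, Cebpa and Klf15 sit together in the controls and first arrays and lower in all 5 second compound arrays, whereas Cebpb, Cebpd and Ebf1 show no such step.

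The nuclear receptor gene Pparg and the late C/EBP gene Cebpa, the core pair of the cascade, were near the control level in the first arrays of all compounds and far lower in all second arrays. Pparg read 15.48 and 15.57 in the controls. In the first arrays it read 15.36 with SQ, 15.57 with mono-SQ, 15.59 with di-SQ, 15.71 with tri-SQ and 15.51 with tetra-SQ. In the second arrays it read 12.60, 12.91, 12.92, 12.92 and 12.62 in the same order of compounds. All 5 second arrays lay below all first arrays and both controls, with a gap of more than 2 log2 units. Between second and first arrays Pparg fell by 2.75 ± 0.13 on the log2 scale (95% interval -3.02 to -2.48, adjusted p = 1.38e-10, limma), which is 6.75-fold. The step was alike over the compounds, from -2.89 to -2.66, and the second control array differed from the first by 0.09.

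Cebpa read 10.61 and 10.63 in the controls. Its first arrays read 10.62 with SQ, 10.84 with mono-SQ, 11.04 with di-SQ, 11.30 with tri-SQ and 10.58 with tetra-SQ. The second arrays read 7.77, 7.35, 8.08, 7.81 and 7.75. Again the second arrays were clear of all others. The difference between second and first arrays was -3.12 ± 0.17 (interval -3.48 to -2.77, adjusted p = 7.32e-10, limma), which is 8.72-fold. By compound it ran from -3.49 with mono-SQ and tri-SQ to -2.83 with tetra-SQ, against 0.02 between the controls.

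Rxra, which encodes the partner with which PPARγ binds DNA, moved much less. It read 10.63 and 10.54 in the controls. It read 10.40, 10.33, 10.42, 10.33 and 9.84 in the first arrays (SQ, mono-, di-, tri- and tetra-SQ) and 10.06, 9.97, 10.08, 9.51 and 10.06 in the second. First and second arrays overlapped, because the first tetra-SQ array was low, and the difference did not pass the test (-0.33 ± 0.15, adjusted p = 0.147). It passed when the first tetra-SQ array was left out (Rxra -0.43, adjusted p = 0.0411).

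KLF15, a Krüppel-like factor that is abundant in mature fat cells and raises Pparg and Slc2a4 expression, followed Pparg and Cebpa. Klf15 read 8.75 and 8.79 in the controls and 8.52, 8.32, 9.02, 9.41 and 8.96 in the first arrays. In the second arrays it read 6.17, 6.15, 6.40, 5.37 and 6.32, all below every other array. Between first and second arrays Klf15 fell by 2.76 ± 0.22 (interval -3.23 to -2.30, adjusted p = 7.36e-08, limma) or 6.79-fold. Its steps ran from -4.04 with tri-SQ to -2.17 with mono-SQ. All 5 second arrays of Klf15 read below the median of the negative probe sets. Background may thus limit the size of the fall and of each step. That median is not the floor of the scale, since the median level of all probe sets was 5.56. How far background reaches into the Klf15 levels was not tested.

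Ebf2 and Stat5a fell by smaller amounts. EBF2, an early B cell factor known for its part in brown and beige fat cells, read 7.55 and 7.42 in the controls and 6.61, 6.99, 6.49, 6.30 and 7.37 in the first arrays. In the second arrays Ebf2 read 5.84, 5.82, 5.94, 5.72 and 6.06. All first arrays lay below both controls, and all second arrays below the first. The difference between second and first arrays was -0.88 ± 0.18 (adjusted p = 0.00135), 1.84-fold, and here too the second arrays lay below the negative median. STAT5A carries signals of growth hormone and prolactin to the nucleus. Stat5a read 10.88 and 10.87 in the controls, 11.01, 10.65, 11, 10.70 and 10.66 in the first arrays and 10.05, 9.96, 10.11, 10.02 and 10 in the second. Its second arrays lay close together and below all others. Stat5a fell by 0.78 ± 0.12 (adjusted p = 0.000142), 1.71-fold, in 5 of 5 compounds.

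Klf4, whose product acts early in the cascade and helps to switch on Cebpb, lay on the other side. It read 7.04 and 7.49 in the controls, 7.56, 7.77, 7.50, 7.49 and 7.73 in the first arrays and 7.89, 7.82, 8.0, 7.86 and 7.96 in the second. All second arrays were above all first arrays and above both controls. The difference between second and first arrays (0.30 ± 0.13, interval 0.02 to 0.57, adjusted p = 0.114) did not pass the test, and the step from control 1 to control 2 was larger, at 0.45. The negative probe sets were also brighter in the second arrays, with medians of 6.48 to 6.66 against 6.09 to 6.28 in the first. Relative to that median, Klf4 stood at 1.40 in the second and 1.48 in the first arrays, and at 0.98 in the controls (0.74 and 1.22). The part of this background in the Klf4 levels was not tested.

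The other early factors and Ebf1 did not pass the test between second and first arrays. Cebpb read 8.28 and 8.22 in the controls, 8.09 to 8.68 in the first arrays and 8.01 to 8.63 in the second (difference 0.04 ± 0.15, interval -0.29 to 0.36, adjusted p = 0.912). Cebpd read 9.66 and 9.42, 9.54 to 10.41 and 9.05 to 9.73 (difference -0.28 ± 0.19, interval -0.68 to 0.11, adjusted p = 0.327). Ebf1, whose product binds and activates the Pparg and Cebpa genes, read 15.17 and 15.11, 15.09 to 15.47 and 14.94 to 15.15 (difference -0.22 ± 0.12, interval -0.48 to 0.03, adjusted p = 0.217). For all 3 the classes overlapped. The intervals leave room for a fall of up to 0.68 for Cebpd and 0.48 for Ebf1, well short of those of Pparg and Cebpa.

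In all, 5 of the 10 factors fell between first and second arrays, 0 rose and 5 did not pass the test. Over all probe sets 24.3% passed, 11.5% lower and 12.8% higher. The median difference was -0.55 for the 10 factors and -0.02 for all probe sets. The 5 that fell (Pparg, Cebpa, Klf15, Ebf2 and Stat5a) were also those whose 5 second arrays all lay below the 5 first, a pattern of 8.86% of all probe sets, and Klf4 had the opposite pattern, found in 9.89%. Beside these differences, 11 of 12 mature fat cell markers were lower and 8 of 11 preadipocyte markers higher in the second arrays. The part of a changed share of fat cells in the levels of the factors was not tested.

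**Figure D2:**
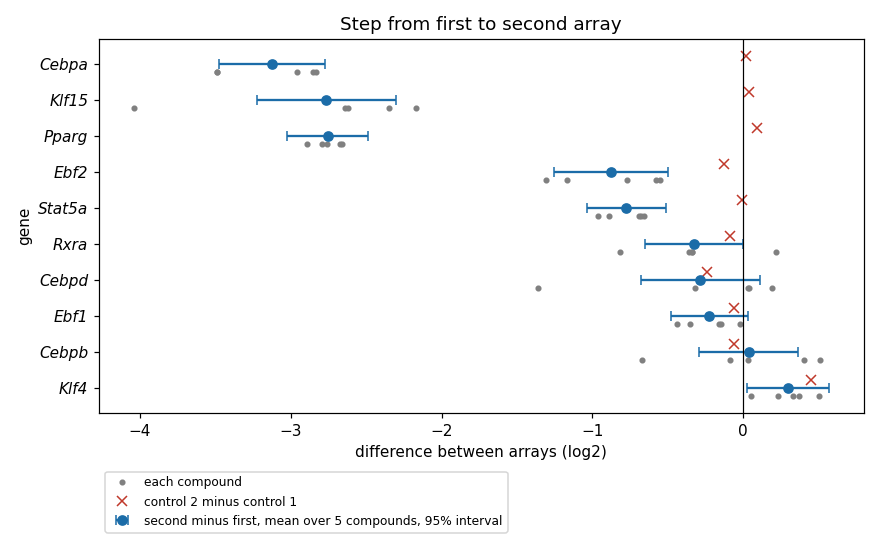
Difference between second and first arrays (x axis, log2) for each of the 10 genes (y axis). Blue points with bars are the mean over 5 compounds with its 95% interval, grey points are single compounds and red crosses are control 2 minus control 1. Cebpa, Klf15 and Pparg lie near -3 with intervals clear of 0, and the crosses of these 3 genes lie near 0, while those of Klf4 (0.45) and Cebpd (-0.24) do not.

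The step between array numbers was then set against that between the 2 controls, which asks whether the compounds and the control differ in it. Each control array stands alone in this fit and is assumed to vary like the compound arrays. The step of the compounds was lower than that of the control for Cebpa (-3.14 ± 0.43, adjusted p = 0.000538), Pparg (-2.84 ± 0.33, adjusted p = 0.00016) and Klf15 (-2.80 ± 0.56, adjusted p = 0.0104). These were 3 of the 10 factors, against 2.89% of all probe sets called, 1.8% lower and 1.09% higher. Stat5a (-0.77 ± 0.33, adjusted p = 0.346) and Ebf2 (-0.75 ± 0.46, adjusted p = 0.678) did not pass, nor did the remaining 5.

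Against the controls, the second arrays had lower levels of 6 factors and a higher level of 1, while 3 did not pass the test. Over all probe sets 19.0% passed, 9.28% lower and 9.69% higher. Cebpa was lower by 2.87 ± 0.22 on the log2 scale (7.30-fold), Pparg by 2.73 ± 0.17 (6.64-fold) and Klf15 by 2.69 ± 0.29 (6.44-fold), with adjusted p-values of 1.25e-07, 1.13e-08 and 5.27e-06. Ebf2 differed by -1.61 ± 0.24 (adjusted p = 0.000132), more than between second and first arrays, since its first arrays already lay between. Stat5a differed by -0.85 ± 0.16 (adjusted p = 0.00147).

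The other 2 calls against the controls were lost when single arrays were left out. Rxra was lower by 0.65 ± 0.20 (adjusted p = 0.0338), and the call was lost without control 1 (Rxra -0.60, adjusted p = 0.237), without control 2 (-0.69, 0.161) or without the second mono-SQ array (-0.66, 0.0503). Klf4 was higher by 0.64 ± 0.17 (adjusted p = 0.0136), which became 0.42 (adjusted p = 0.315) without control 1, the lowest Klf4 level of the 12 arrays. Cebpb (0.11), Cebpd (-0.09) and Ebf1 (-0.11) did not pass. Second arrays lay below both controls for 6 factors, a pattern of 19.5% of all probe sets, and above both for Klf4, a pattern of 18.6%.

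The first arrays, by contrast, gave 0 factors past the test against the controls with limma. Over all probe sets 1 passed, which is 0.0045%, and 12.2% had an unadjusted p under 0.05. The member with the smallest adjusted p was Ebf2 (-0.73 ± 0.24, interval -1.23 to -0.23, unadjusted p = 0.00692, adjusted p = 0.247), the 1 factor with an unadjusted p under 0.05. With limma's array weights Ebf2 passed (-0.68, adjusted p = 0.014), in a fit that called 2604 probe sets. Pparg (0.02), Cebpa (0.26) and Klf15 (0.08) had small positive differences that did not pass. The median over the 10 factors was 0.07. The first arrays lay below both controls for Ebf2 and Rxra, a pattern of 10.7% of all probe sets.

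**Figure D3:**
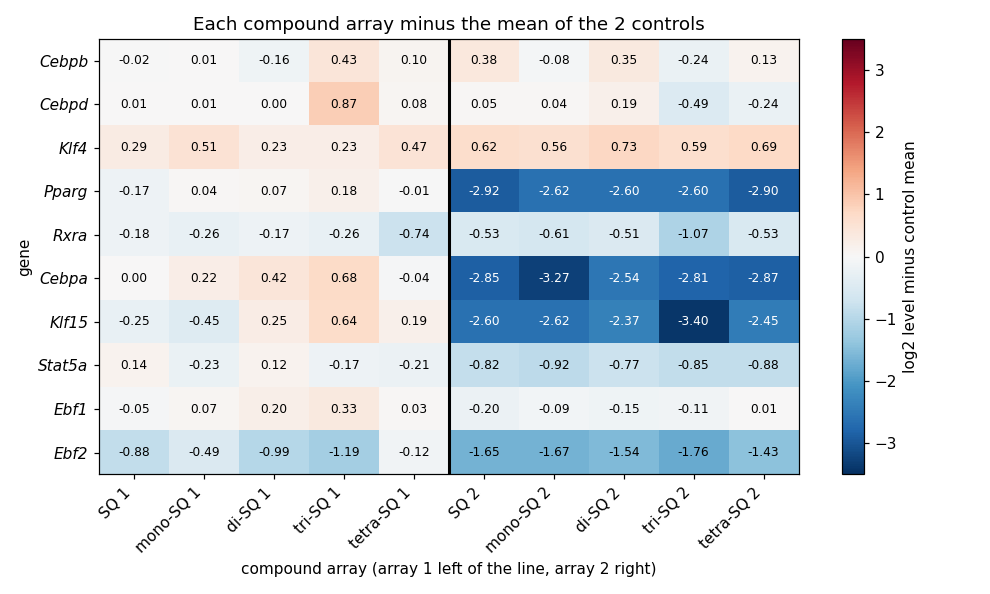
Log2 level of each compound array (columns) minus the mean of the 2 controls, for each gene (rows), with the value written in each cell. Red is higher and blue lower than control. First arrays stand left of the line and second arrays right of it, where Pparg, Cebpa and Klf15 are between -3.40 and -2.37.

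Taken compound by compound, as the labels group the arrays, 0 factors and 0 probe sets (0.0%) passed the test against control for any of the 5 compounds. At an unadjusted p under 0.05 the shares of all probe sets were 5.03% for SQ, 5.9% for mono-SQ, 5.57% for di-SQ, 6.68% for tri-SQ and 8.49% for tetra-SQ, and Ebf2 was among them for SQ, di-SQ and tri-SQ. The mean of a group fell between 2 distant arrays for the core factors. With SQ, for example, Pparg had a mean of 13.98 against 15.52 in the control, a difference of -1.54 ± 1.44 with an interval of -4.80 to 1.71. Over the compounds the differences from control ran from -1.54 (SQ) to -1.21 (tri-SQ) for Pparg and from -1.52 (mono-SQ) to -1.06 (di-SQ) for Cebpa. For Klf15 they ran from -1.54 (mono-SQ) to -1.06 (di-SQ) and for Ebf2 from -1.48 (tri-SQ) to -0.77 (tetra-SQ). The smallest adjusted p of a factor was 0.92, 0.837, 0.886, 0.699 and 0.597 for the compounds in the order above. The 5 comparisons share the 2 control arrays.

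Without the second arrays these values changed sign or shrank, as the first arrays show by themselves. Pparg in single first arrays differed from the control mean by -0.16 (SQ) to 0.19 (tri-SQ), Cebpa by -0.04 (tetra-SQ) to 0.68 (tri-SQ) and Klf15 by -0.45 (mono-SQ) to 0.64 (tri-SQ). Ebf2 stayed below the controls, by -1.19 (tri-SQ) to -0.12 (tetra-SQ). In the authors' deposited table, Pparg is given a fold change of -2.92 for SQ with a p of 0.3115 and a false discovery rate of 0.9197. That table gives Ebf2 a fold change of -2.78 for tri-SQ with a p of 0.0184 and a false discovery rate of 0.7012, and negative fold changes for Pparg, Cebpa, Klf15 and Ebf2 in all 5 comparisons.

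The derivatives were also set against squalene itself, at the same dose and time. A total of 0 factors and 0 probe sets (0.0%) passed for mono-, di-, tri- or tetra-SQ, with 2.34%, 2.34%, 4.98% and 3.69% of probe sets at an unadjusted p under 0.05, and the F test over the 5 compounds also called 0 (2.81% unadjusted). The largest difference of a factor was 0.26 for mono-SQ (Pparg, interval -3.00 to 3.52) and 0.36 for di-SQ (Cebpa, interval -3.34 to 4.07, and Klf15, interval -2.99 to 3.72). It was 0.36 for tri-SQ (Cebpa, interval -3.34 to 4.06) and 0.49 for tetra-SQ (Ebf2, interval -0.67 to 1.65). These intervals hold changes of about 8-fold or more in either direction for Pparg and Cebpa. With 2 arrays a group, this fit thus cannot tell whether the compounds act alike. Its spread includes the step between array numbers. With the array number as a block, 0 probe sets passed for any derivative against SQ. That block gave controls and compounds a common step, although their steps differed for genes such as Pparg (0.09 against a mean of -2.75). For such genes part of the step stayed in the spread, so the blocked fit cannot tell whether the compounds act alike either. Within an array number the compounds lay closer, with 1 array each. Pparg read 15.36 to 15.71 in the first and 12.60 to 12.92 in the second arrays, and Cebpa 10.58 to 11.30 and 7.35 to 8.08. For Ebf1, with closer arrays, the differences from SQ were 0.12, 0.15, 0.24 and 0.14, with intervals from -0.40 to 0.75 over the 4 derivatives.

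Within the classes, the tri-SQ arrays were often at the edge. The first tri-SQ array was the highest of the 5 first arrays for 6 factors (Cebpb, Cebpd, Pparg, Cebpa, Klf15 and Ebf1), a place it held for 24.5% of all probe sets. The second tri-SQ array was the lowest of the 5 second arrays for 5 factors (Cebpb, Cebpd, Rxra, Klf15 and Ebf2), against 26.4% of all. Both held for Cebpb, Cebpd and Klf15, against 5.71% of all probe sets. With a single array in each place, these ranks have no test, and for Klf15 and Ebf2 all 5 second arrays lay below the negative median.

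The wider network was read in gene lists, described by counts without a test of the list. Between first and second arrays 12.8% of all probe sets rose and 11.5% fell, beside which each count is to be read. Genes that lay above the median of the negative probe sets in none of the arrays of a class are named as such. Background may then limit the size of their difference. Of 24 known target genes of PPARγ and C/EBPα, 23 fell and 0 rose between first and second arrays, with a median of -2.77. Slc2a4, the insulin-responsive glucose transporter, fell by 4.98 ± 0.16 on the log2 scale and the lipid droplet coat gene Plin1 by 4.68 ± 0.15. Lipe, which encodes hormone-sensitive lipase, fell by 4.40 ± 0.15. Cfd, which encodes the secreted protease adipsin, fell by 5.02 ± 0.27 (adjusted p at most 8.36e-10 for these 4). Lep, the leptin gene, was the 1 target that did not pass (-0.47 ± 0.22, adjusted p = 0.16), and it lay above the negative median in 0 of the 12 arrays. The 12 mature fat cell markers, of which 11 fell, are all in this target list too, so the lists are not separate evidence.

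Among 30 other regulators that were grouped as activators of adipogenesis, 8 rose and 9 fell, with a median of -0.04, and 2 of these 17 lay above the negative median in no array. The list also holds Tfap2a, whose product is known to repress Cebpa, and Bhlhe40, which has been described as an inhibitor too. Nr1h3, which encodes the oxysterol receptor LXRα, fell by 3.54 ± 0.16. Egr2 (4.73 ± 0.21), Klf6 (2.35 ± 0.15) and Tfap2a (2.19 ± 0.22) rose, with adjusted p at most 1.01e-06. Relatives of the 10 factors, from all the lists, were mixed. Of the Krüppel-like factor genes Klf2 (1.33 ± 0.21), Klf3 (0.75 ± 0.15), Klf5 (0.91 ± 0.27), Klf6, Klf7 (1.09 ± 0.17) and Klf9 (0.72 ± 0.15) rose and Klf10 (0.35) did not pass. Klf2 lay above the negative median in 0 of the first arrays and the controls and in 2 of the second. Cebpg fell (-1.57 ± 0.15, adjusted p = 7.95e-07, limma), and Cebpe (-0.31), Ebf3 (0.29), Rxrb (0.19) and Stat5b (0.06) did not pass. Rxrg passed (-0.45 ± 0.16, adjusted p = 0.0461, limma) but, like Cebpe, lay above the negative median in 0 of the 12 arrays.

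Of 33 genes that were grouped as restraining adipogenesis, 12 rose and 6 fell, with a median of 0.17. The grouping was not tested here and need not hold for each gene, among them those that fell. Id3, an inhibitor of basic helix-loop-helix factors, rose by 2.17 ± 0.23, Dlk1, the preadipocyte factor Pref-1, by 1.82 ± 0.17 and the orphan receptor gene Nr2f2 by 1.63 ± 0.16. Nrip1, a nuclear receptor corepressor, fell by 1.78 ± 0.15 (adjusted p at most 2.02e-06 for these 4). Id3 lay above the negative median in the 5 second arrays and in 0 of the others. Of 17 genes of the induction signals (insulin, cyclic AMP, glucocorticoid and the growth hormone receptor family), 6 rose and 8 fell, with a median of -0.19. Pde3b, the phosphodiesterase through which insulin lowers cyclic AMP, fell by 5.22 ± 0.16. Akt2, a kinase gene of insulin signalling, fell by 1.79 ± 0.18. Prlr, the prolactin receptor gene, passed with -2.20 ± 0.21, but it lay above the negative median in 0 of the 12 arrays. Sgk1, a glucocorticoid-responsive kinase gene, rose by 2.14 ± 0.20.

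Immediate early genes, which respond within minutes to growth factors and other stimuli, had the highest median of the 11 lists, at 1.37. Of 29 such genes 20 rose and 2 fell, led by Egr1 (5.80 ± 0.13), Egr2 (4.73 ± 0.21), Zfp36 (4.50 ± 0.12) and Ier2 (4.29 ± 0.15). Zfp36 lay above the negative median in all 5 second arrays, in 1 of the 5 first arrays and in 0 of the controls. Egr2, Klf2 and Klf6 are in this list and also in a list above. The part of this early response in the levels of the 10 factors was not tested.

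Among markers of other cell types, 8 of 11 preadipocyte markers rose and 0 fell, among them Lum (1.88 ± 0.17), Pdgfrb (1.24 ± 0.16) and Col1a1 (1.16 ± 0.15). Of 10 macrophage and 6 endothelial markers 0 passed between first and second arrays. Of the endothelial markers 0, and of the macrophage markers 1, lay above the negative median in every array. Of 7 osteoblast markers 2 rose, Runx2 (1.22 ± 0.22) and Spp1 (0.94 ± 0.19), and Alpl fell (-5.05 ± 0.27), to below the negative median in the 5 second arrays. Of 8 muscle markers Des fell (-2.02 ± 0.20). The osteoblast list thus had 28.6% higher and 14.3% lower, and the muscle list 12.5% lower. The shares of all probe sets were 12.8% higher and 11.5% lower, so the lower shares of both lists lay near that of all. The mean level of the osteoblast list was 7.46 to 7.47 in the controls, 7.21 to 7.70 in the first and 6.95 to 7.30 in the second arrays. That of the muscle list was 4.84 to 4.96, 4.71 to 4.96 and 4.44 to 4.69. In the first arrays against control, 0 genes of any of these 11 lists passed, where 1 of all 22206 probe sets (0.0045%) did. A count of 0 therefore does not set these lists apart from the other probe sets.

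**Figure D4:**
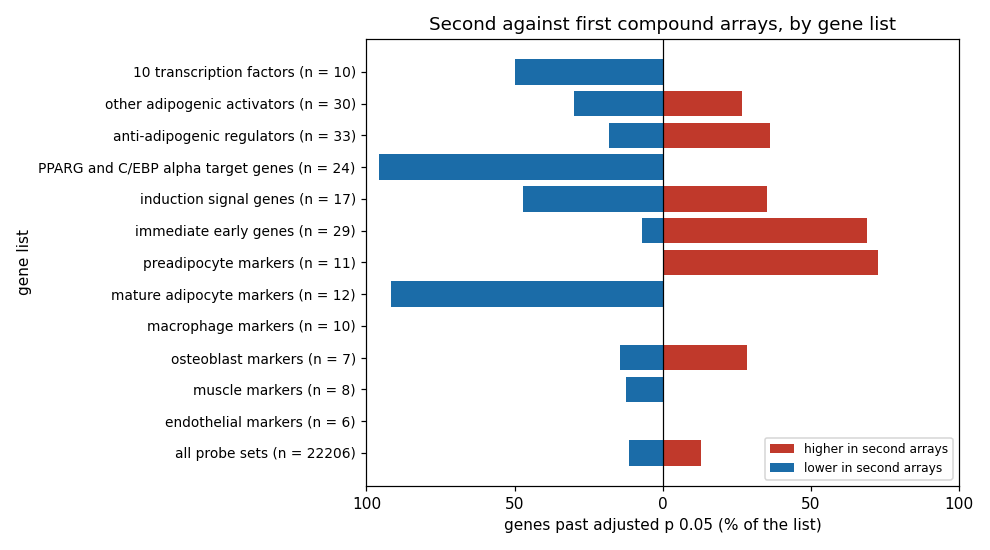
Share of each gene list (y axis, with its number of genes) past an adjusted p of 0.05 between second and first arrays (x axis, %). Red bars to the right are genes higher and blue bars to the left genes lower in the second arrays. The target and mature fat cell lists have only blue bars (95.8% and 91.7%), the 10 factors are blue for 5 genes, and all probe sets 12.8% red and 11.5% blue.

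The genes whose level over the 12 arrays was most like that of each factor were found among 10476 probe sets by Pearson's r, as a description. All arrays enter this r, so the split between second and other arrays sets much of it. For Pparg the closest was Plin4, a lipid droplet coat gene (r = 0.999). For Cebpa they were Agpat9 (0.997) and Gpt (0.996), for Klf15 Il17rc (0.993) and Akt2 (0.992), and for Stat5a Gne (0.982) and Nampt (0.980).

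The other 6 factors had lower values of r. These were Def8 (0.960) and Sgsm2 (0.921) for Rxra, Tmem106c (0.930) and Pou6f1 (0.924) for Ebf2, and Gtf2a1 (0.929) and Tab3 (0.924) for Ebf1. For Cebpd they were Smap2 (0.914) and Med25 (0.909), for Klf4 Fam188b (0.904) and Ticam1 (0.903), and for Cebpb Nedd8 (0.843) and Gamt (0.837).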

How the data were processed

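Total RNA of 3T3-L1 cells was measured on 12 Clariom S mouse arrays. Per the design text, the authors ran SST-RMA normalization (Transcriptome Analysis Console 4.0.1), and per the file headers they deposited log2 signals with 2 decimals for each probe set. For the compounds against control the authors also deposited signed fold changes (a score in which a minus sign marks a lower level) and p-values with false discovery rates, from a test that is not given in the sources used here. The deposited series matrix, whose log2 values were an alternative, includes 5222 probe sets with IDs that contain neg between hyphens, taken as negative probe sets.

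Groups came from the sample titles. The first sheet's log2 signals were fitted as deposited, in R 4.3.3, by the linear models and two-sided moderated tests of limma 3.58.1, over 6 groups (6 residual degrees of freedom) or over 3 classes, control, first and second compound arrays (9), and p-values were adjusted over 22206 probe sets. The compounds are pooled in the classes, so their spread holds differences between compounds. The members, lists, classes and tests were chosen with earlier results of these data known. Of the probe sets, 21367 carried 1 gene symbol, 836 several and 3 none; genes were named from single-symbol probe sets, and for list genes with several the one with the highest mean was used. All 10 members are named, with up to 4 genes of each list past the test by size of the second minus first difference, plus relatives of the members and Lep, picked after their values were seen, and the 2 probe sets most like each member among those whose highest class mean reached the median level. For Pparg 1 of these is not reported here. Cell markers were those of preadipocytes, mature fat cells, macrophages, osteoblasts, muscle and endothelium.

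The fits were tested on simulated data with 50 probe sets changed at each fold among 22206. At folds of 1.5, 2, 4 and 8, the fit of SQ against control recovered 0%, 6%, 50% and 80%, with 3 unchanged probe sets called. Between second and first arrays it recovered 22%, 80%, 98% and 100%, with 5 called. Noise was drawn independently for each probe set and array, so a step shared by all second arrays was not simulated. The rates are for randomly picked probe sets. They do not hold for genes with a wide spread between arrays, such as Pparg (SE 1.44 for SQ against control). Array numbers were not treated as pairs: the steps from array 1 to array 2 correlated at r = 0.48 to 0.72 between compounds but at about 0 (-0.00074 to 0.0024) between control and compounds. The alternatives were the other value table, quantile normalization, a filter on dim probe sets, eBayes with a trend, array weights, the replicate number (for array classes, the group) as a block and leaving out each array; 2 more, without the second compound arrays and without both tri-SQ arrays, were chosen after seeing the data. The number of arrays limits the precision. Promoter windows were searched with Python 3.11.15.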

Additional observations from a re-analysis of the deposited data

Results flagged for a closer look

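Within the sets of 5 first or 5 second arrays, 4 values lay far from the other 4 arrays of their set. Cebpd read 10.41 in the first tri-SQ array, Rxra 9.84 in the first tetra-SQ array, Rxra 9.51 in the second tri-SQ array and Klf15 5.37 in the second tri-SQ array. For independent, normally distributed values, chance gives such a gap in about 1 of 20 sets. The 20 sets examined share the same arrays and are not independent, so the number of such gaps has no test. The step from array 1 to array 2 differed between the compounds and the control for 3 factors by limma's interaction term, by -2.80 for Klf15, -2.84 for Pparg and -3.14 for Cebpa (log2). In this fit each control array stands alone, and its spread is taken from the compound arrays.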

How the results depend on the processing

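The falls of Pparg, Cebpa and Klf15 between first and second arrays kept their direction and side of the threshold under 19 of 19 alternatives (adjusted p at most 2.03e-05), and those against the controls under 18 of 18 (at most 0.000394). With the replicate number as a block 0 probe sets passed in the comparisons of single compounds. That block gave controls and compounds a common step. Where their steps differed, as for Pparg, Cebpa and Klf15, it left part of the step in the spread. With the compound or control group as a block, 4697 in place of 5391 passed between second and first arrays and 484 in place of 641 for the step against that of the controls. These blocks changed no call of a factor. No block was fitted for first or second arrays against the controls, and the step against the controls could not be fitted without a control array. Probe sets called in the first arrays against control, 1 as reported, were 0 with the series matrix values, quantile normalization, eBayes with trend or without the second compound arrays, 2 with only brighter probe sets or without both tri-SQ arrays, 2604 with array weights and 0 to 5 with an array left out. In the second arrays against control, 4211 became 8492 with array weights and 1880 to 4704 with an array left out. The median of the factors for tri-SQ against control became 0.28 without the second compound arrays and -0.96 to 0.28 with an array left out. Without the second compound arrays the difference from control turned to 0.045 (mono-SQ), 0.065 (di-SQ) and 0.185 (tri-SQ) for Pparg, to 0.22, 0.42 and 0.68 for Cebpa, and to 0.25 (di-SQ), 0.64 (tri-SQ) and 0.19 (tetra-SQ) for Klf15. With an array left out these ranged from -2.61 to 0.045, -2.60 to 0.065 and -2.60 to 0.185 for Pparg, from -3.27 to 0.22, -2.54 to 0.42 and -2.81 to 0.68 for Cebpa, and from -2.37 to 0.25, -3.40 to 0.64 and -2.45 to 0.19 for Klf15. Against SQ they ranged from -1.12 to 1.64 (Pparg, mono-SQ), -1.11 to 1.84 (Cebpa, di-SQ), -1.39 to 2.10 (Cebpa, tri-SQ) and -0.17 to 1.15 (Ebf2, tetra-SQ). Small class differences also turned. In first arrays against control these were Cebpb (-0.018), Klf15 (-0.065) and Pparg (-0.018) without both tri-SQ arrays and Pparg (-0.041) with quantile normalization, with ranges of -0.018 to 0.13, -0.065 to 0.21 and -0.022 to 0.07 with an array left out. Cebpd turned to 0.01 in second arrays against control without both tri-SQ arrays (-0.21 to 0.03 with an array left out). For its step against that of the controls it turned to 0.091 with array weights and 0.225 without both tri-SQ arrays (-0.11 to 0.13). Cebpb between second and first arrays ranged from -0.032 to 0.13. The cause of these changes was not tested, beyond the arrays each setting leaves out. The 2 arrays of a group limit what single compounds can show, and levels near the negative probe sets may limit Klf15 and Ebf2.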
